A study of Rattus norvegicus with 6 samples.

Results

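Transcripts of 10 matrix genes were followed in rat liver: the small leucine-rich proteoglycans Dcn, Bgn, Lum, Fmod, Ogn and Prelp and the matricellular proteins Postn, Sparc, Thbs1 and Tnc. They were taken by symbol from the deposited tables, which hold 20104 genes, and all 10 were found in both tables. RNA sequencing was done on liver repair tissue collected on day 14 after trauma. The wound had been covered with AKOC in 3 libraries or with Quik-clot, a commercial haemostatic dressing used as the control, in the other 3. AKOC is not spelled out in the labels and belongs to a series on kaolin anchored on cotton. All 6 libraries carry the injury and a dressing, and no uninjured or undressed liver is among them. The labels give no strain, sex, age or genotype, and do not say whether the libraries of a dressing came from separate animals or how much of each piece was scar. Spread between libraries, on which every p-value rests, may thus not be a spread between animals.

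Small leucine-rich proteoglycans are secreted proteins whose curved leucine-rich repeat domain sits on collagen fibrils and regulates their assembly and spacing. Dcn (decorin) and Bgn (biglycan) carry chondroitin or dermatan sulfate chains, and Dcn binds transforming growth factor beta, whereas Lum (lumican), Fmod (fibromodulin) and Ogn (osteoglycin) can carry keratan sulfate. Matricellular proteins are secreted into the matrix but act mainly on cells, through integrins, growth factors and proteases, and several are made transiently in wounds. In liver these genes are known chiefly from hepatic stellate cells, portal fibroblasts and the myofibroblasts that arise from them.

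Lum and Postn had the largest fold changes of the 10 genes, in opposite directions, so the 250 bases before their transcription starts are shown for reference. The sequences are from RefSeq on the GRCr8 build, at chr7:34245456-34245705 for Lum and chr2:140677811-140678060 for Postn, both on the plus strand. Capitals mark every match, on either strand, to the TATA box (spelled TATAAA) or to the CAAT box (spelled CCAAT).
Lum: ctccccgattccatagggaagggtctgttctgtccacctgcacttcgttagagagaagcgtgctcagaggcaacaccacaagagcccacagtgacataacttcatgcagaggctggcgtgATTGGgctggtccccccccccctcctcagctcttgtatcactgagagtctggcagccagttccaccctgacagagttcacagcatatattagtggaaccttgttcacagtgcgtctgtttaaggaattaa
Postn: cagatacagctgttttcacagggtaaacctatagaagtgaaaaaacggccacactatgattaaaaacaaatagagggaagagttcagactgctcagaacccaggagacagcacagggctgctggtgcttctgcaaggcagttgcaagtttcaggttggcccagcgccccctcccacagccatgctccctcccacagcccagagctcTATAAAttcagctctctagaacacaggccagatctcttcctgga
The Postn window held 1 TATA box, its first base 44 bases before the start, and no CAAT box, and the Lum window held 1 CAAT box, on the reverse strand, and no TATA box. Among 33469 promoter windows of the same length, 12.9% held the TATA box and 34% the CAAT box. The capitals thus mark letters in these windows and do not show binding. Of the 10 genes, 7 had a promoter in the table. The counts were made on another build, mRatBN7.2, so no gene coordinates are given.

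Library totals ran from 40402312 to 41455378 counts. For 1 gene across libraries the unit is CPM (counts per 1e6 of a library, after trimmed-mean or TMM scaling), with values listed for replicates 1, 2 and 3 of each dressing. Genes are compared with each other in FPKM, which also divides by transcript length. Albumin, the defining hepatocyte transcript, took 7.02% to 11.7% of all counts, and the 10 matrix genes together 0.0183% to 0.0339%. A gene was called at a Benjamini-Hochberg adjusted p under 0.05 in the quasi-likelihood test of edgeR, adjusted over the 13872 genes tested. All 10 members passed the filter on low counts.

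On the FPKM scale the order was led by Sparc (mean of 6 libraries 43.2 FPKM, range 36.4 to 54.0) and Bgn (34.0 FPKM, 19.8 to 55.5), whose ranges overlapped. Dcn followed at 13.6 FPKM (6.94 to 31.2), Prelp at 6.25 FPKM (4.43 to 10.02) and Ogn at 4.13 FPKM (2.84 to 5.96), each range overlapping that of the gene before it. Below a gap, Thbs1 averaged 1.39 FPKM (0.986 to 1.95) and Lum 0.916 FPKM (0.169 to 2.41). The lowest were Postn at 0.222 FPKM (0 to 0.590), Fmod at 0.0940 FPKM (0.0499 to 0.135) and Tnc at 0.0284 FPKM (0.0127 to 0.0515), and from Thbs1 downwards each range again overlapped the next. Lum, Postn, Fmod and Tnc thus rested on few reads, from 0 to 172 per library, while Sparc had 3187 to 4763.

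No member passed the threshold over all genes in edgeR: 0 were called higher and 0 lower after AKOC, against a background of 0% of the 13872 genes, and their lowest adjusted p was 0.331. Before adjustment, 3 members had a p under 0.05 and were higher (Lum, Bgn and Prelp) and 1 was lower (Postn), while 6.48% of all tested genes were higher and 5.57% lower at that value, 12% in all. In 4 members CPM was without overlap between the dressings, Bgn, Lum and Sparc higher and Postn lower after AKOC, against 9.53% of tested genes higher and 8.84% lower, 18.4% in all. Without TMM scaling, Bgn and Sparc overlapped. DESeq2 called 1 member, Postn, lower, where it called 0.693% of genes lower and 1.39% higher, 2.09% in all, and limma-voom called 0%. Of the 10 log2 fold changes, 7 were positive and 3 negative, with a median of 0.23 against -0.01 over all tested genes; the members' median was 0.07 when AKOC replicate 3 was left out and 0.13 when Quik-clot replicate 1 was. The smallest two-sided p that exact permutation of 3 and 3 libraries allows is 0.1.

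**Figure D1:**
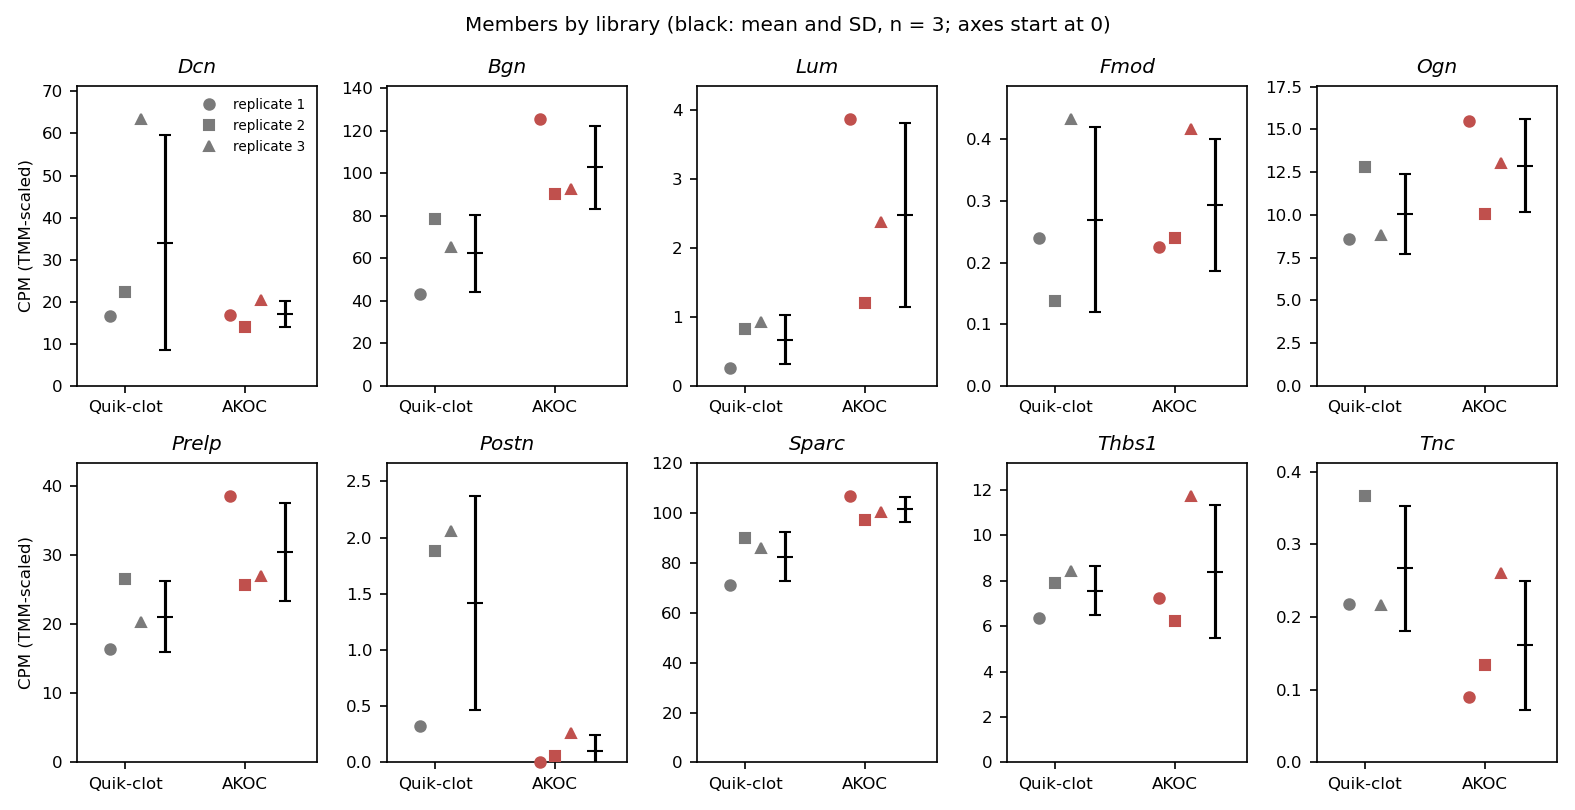
CPM of each member (vertical axes from 0) in the Quik-clot (grey) and AKOC (red) libraries, with symbols for replicates and black bars for mean and SD, n = 3 (the AKOC bar of Postn is cut off at 0). The AKOC libraries lie above all Quik-clot libraries for Bgn, Lum and Sparc and below them for Postn, and 1 Quik-clot library lifts Dcn.

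Biglycan, which can also act as a ligand of Toll-like receptors when set free, had the highest mean FPKM of the 6 proteoglycans followed here. Bgn (rat gene ID 25181) stood at 43.1, 78.4 and 65.3 CPM under Quik-clot against 125, 90.3 and 92.5 CPM under AKOC. Every AKOC library was above every Quik-clot library, though AKOC replicate 2 exceeded Quik-clot replicate 2 by little. The means were 103 ± 19.6 and 62.3 ± 17.9 CPM (SD, n = 3 per dressing, as for all means here), a log2 fold change, AKOC over Quik-clot, of 0.72 ± 0.24 (SE; edgeR adjusted p = 0.356).

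Lumican, a corneal and skin proteoglycan that is also deposited in fibrotic liver, had the largest positive fold change of the members. Lum (rat gene ID 81682) had 12, 36 and 34 counts in Quik-clot replicates 1 to 3 and 172, 45 and 91 in AKOC replicates 1 to 3. The corresponding levels were 0.261, 0.825 and 0.919 CPM against 3.86, 1.20 and 2.37 CPM. The groups did not overlap, but counting error alone spans the narrowest gap: the exact Poisson 95% intervals were 32.8 to 60.2 counts for AKOC replicate 2 and 23.5 to 47.5 for Quik-clot replicate 3 (intervals cover counting error only). The log2 fold change was 1.90 ± 0.59 (edgeR adjusted p = 0.339; DESeq2 adjusted p = 0.0560), and 89 of the 13872 tested genes had a higher one.

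Decorin differed in direction from its closest relative, biglycan. Dcn (rat gene ID 29139) stood at 16.5, 22.2 and 63.4 CPM under Quik-clot against 16.8, 14.1 and 20.4 CPM under AKOC. Only Quik-clot replicate 3 stood apart, and the other 5 libraries overlapped between 14.1 and 22.2 CPM. The log2 fold change of -0.99 ± 0.48 (edgeR adjusted p = 0.446) was -0.18 without Quik-clot replicate 3. That library also had 2403 CPM of the acute phase gene A2m, against 5.29 to 91.5 CPM in the others, and 55.9 CPM of the neutrophil gene S100a9, against 3.29 to 25.6 CPM. The part of either in the decorin level was not tested.

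Prelp, a proteoglycan relative with a basic heparin-binding end, and Ogn had their highest level in AKOC replicate 1 and their lowest in Quik-clot replicate 1, as Bgn did. Prelp had 16.5, 26.5 and 20.4 CPM under Quik-clot against 38.6, 25.7 and 26.96 CPM under AKOC, a log2 fold change of 0.53 ± 0.22 (edgeR adjusted p = 0.414). Ogn had 8.57, 12.8 and 8.81 CPM under Quik-clot against 15.5, 10.1 and 13.04 CPM under AKOC, a log2 fold change of 0.36 ± 0.22 (edgeR adjusted p = 0.537). In both genes Quik-clot replicate 2 lay above AKOC replicate 2, so the groups overlapped. Fmod, which steers collagen fibril thickness in tendon, was barely detected, with 6 to 16 counts after Quik-clot and 9 to 16 after AKOC and a log2 fold change of 0.13 ± 0.57.

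Periostin, a protein of wounds and scars that binds collagen and integrins and is made by activated fibroblasts, had the largest negative fold change of the members. Postn (rat gene ID 361945) had 15, 82 and 76 counts in Quik-clot replicates 1 to 3 and 0, 2 and 10 in AKOC replicates 1 to 3. This corresponds to 0.326, 1.88 and 2.05 CPM against 0, 0.0534 and 0.261 CPM. Every AKOC library was below every Quik-clot library, yet the exact Poisson 95% intervals of the nearest pair, 8.40 to 24.7 counts in Quik-clot replicate 1 and 4.80 to 18.4 in AKOC replicate 3, overlapped. The group means were 1.42 ± 0.951 and 0.105 ± 0.138 CPM, the former 13.6-fold higher.

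The fitted log2 fold change of Postn was -3.75 ± 1.10, and 5 of the 13872 tested genes had a lower one. It was not called by edgeR (adjusted p = 0.331) or limma-voom (adjusted p = 0.294) and was called by DESeq2 (adjusted p = 0.0223). Without AKOC replicate 3 the fitted value was -5.67 and without AKOC replicate 1 it was -3.14. On the log2(FPKM + 1) scale, where the added 1 exceeds every Postn value, the difference was -0.44, and on the log2(FPKM + 0.1) scale it was -1.85.

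Sparc (osteonectin), a collagen-binding glycoprotein, showed the smallest spread. Its levels were 71.3, 90.1 and 86.1 CPM under Quik-clot against 107, 97.2 and 100.4 CPM under AKOC. The groups did not overlap, and their means were 82.5 ± 9.94 and 101.5 ± 4.94 CPM, a log2 fold change of 0.30 ± 0.13 (edgeR adjusted p = 0.414). Thbs1 (thrombospondin-1), which activates latent transforming growth factor beta and is stored in platelets, had 6.35, 7.91 and 8.43 CPM under Quik-clot against 7.23, 6.22 and 11.7 CPM under AKOC. The AKOC libraries held both the lowest and the highest Thbs1 level, and the log2 fold change was 0.15 ± 0.26.

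Tnc (tenascin-C), a large glycoprotein that appears at wound edges and binds periostin, was close to the detection limit, with 10, 16 and 8 counts after Quik-clot and 4, 5 and 10 after AKOC. The groups overlapped, and the log2 fold change was -0.73 ± 0.57 (edgeR adjusted p = 0.628), with -1.24 in the absence of AKOC replicate 3 and -0.43 in that of Quik-clot replicate 2 or of AKOC replicate 1. Both members with a negative fold change in the matricellular group were thus also its lowest-expressed.

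**Figure D2:**
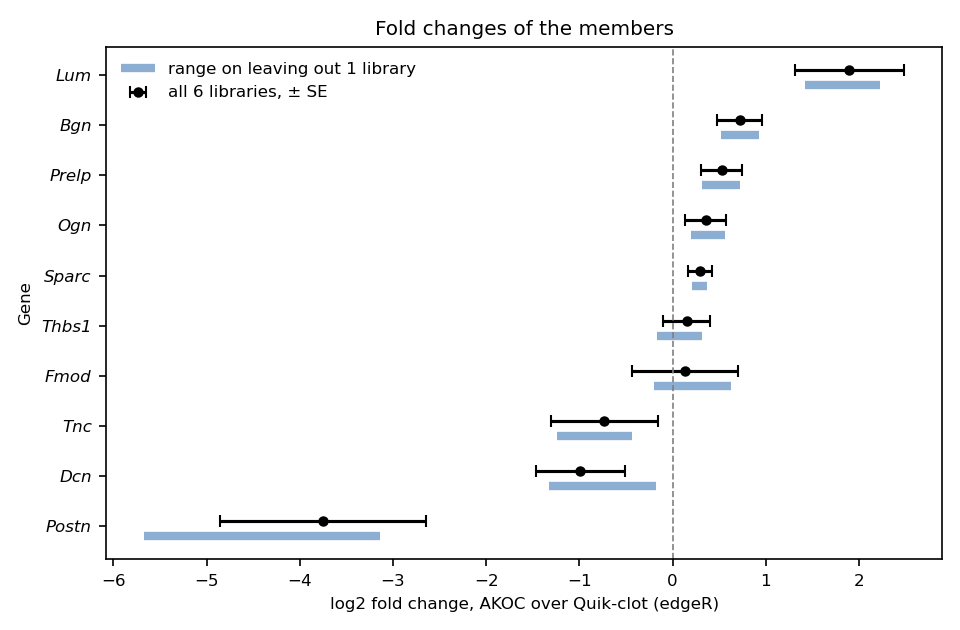
Log2 fold change of each member, AKOC over Quik-clot, from the edgeR test (points, with SE) and its range when each library is left out in turn (blue bars). The bars of Fmod and Thbs1 cross 0, that of Dcn reaches -0.18, and that of Postn spans -5.67 to -3.14.

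The libraries at the ends of the range were shared by several genes. AKOC replicate 1 was the highest library for 5 members, Bgn, Lum, Ogn, Prelp and Sparc, and Quik-clot replicate 1 was the lowest for the same 5. AKOC replicate 1 was also the lowest library for Postn and Tnc. Quik-clot replicate 3 was the highest for Dcn, Fmod and Postn. Without AKOC replicate 1 the log2 fold change was 0.55 for Bgn, 1.42 for Lum, 0.20 for Ogn and 0.32 for Prelp, and without Quik-clot replicate 1 it was 0.52 for Bgn and 1.51 for Lum.

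**Figure D3:**
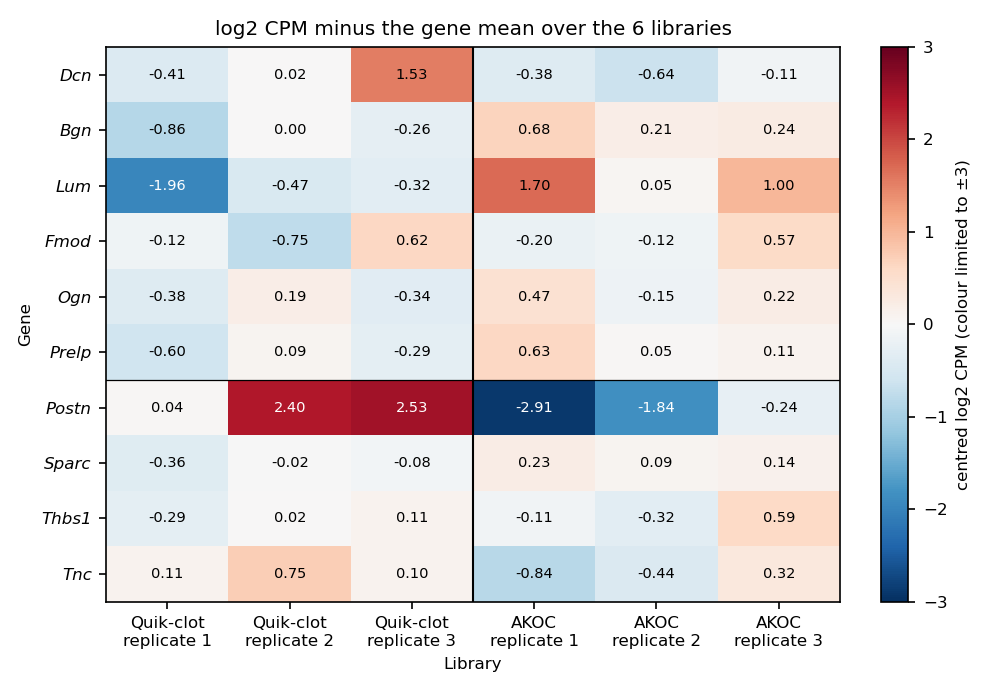
Log2 CPM of each member minus its mean over the 6 libraries, by gene (rows; proteoglycans above the line) and library (columns). The Postn row runs from 2.53 (Quik-clot replicate 3) to -2.91 (AKOC replicate 1), and the Lum row from -1.96 (Quik-clot replicate 1) to 1.70 (AKOC replicate 1).

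Ratios of 2 transcripts within a library do not depend on depth or scaling. They were chosen after the values had been seen and are given as a description. The ratio of Dcn to Bgn, in FPKM, was 0.509, 0.376 and 1.29 in Quik-clot replicates 1 to 3 and 0.178, 0.207 and 0.292 in AKOC replicates 1 to 3, without overlap. The means were 0.724 ± 0.492 and 0.226 ± 0.0595. Biglycan transcripts outnumbered decorin transcripts per length in 5 of the 6 libraries, the exception being Quik-clot replicate 3.

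Lum to Dcn ran from 0.0154 to 0.0394 after Quik-clot and from 0.0906 to 0.244 after AKOC, also without overlap. Prelp to Bgn ran from 0.183 to 0.224 after Quik-clot and from 0.167 to 0.181 after AKOC. Ogn to Bgn, by contrast, overlapped, at 0.173, 0.141 and 0.117 after Quik-clot and 0.107, 0.0967 and 0.122 after AKOC. The spread across libraries was thus wide for the ratios with Dcn and narrow for Prelp to Bgn.

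**Figure D4:**
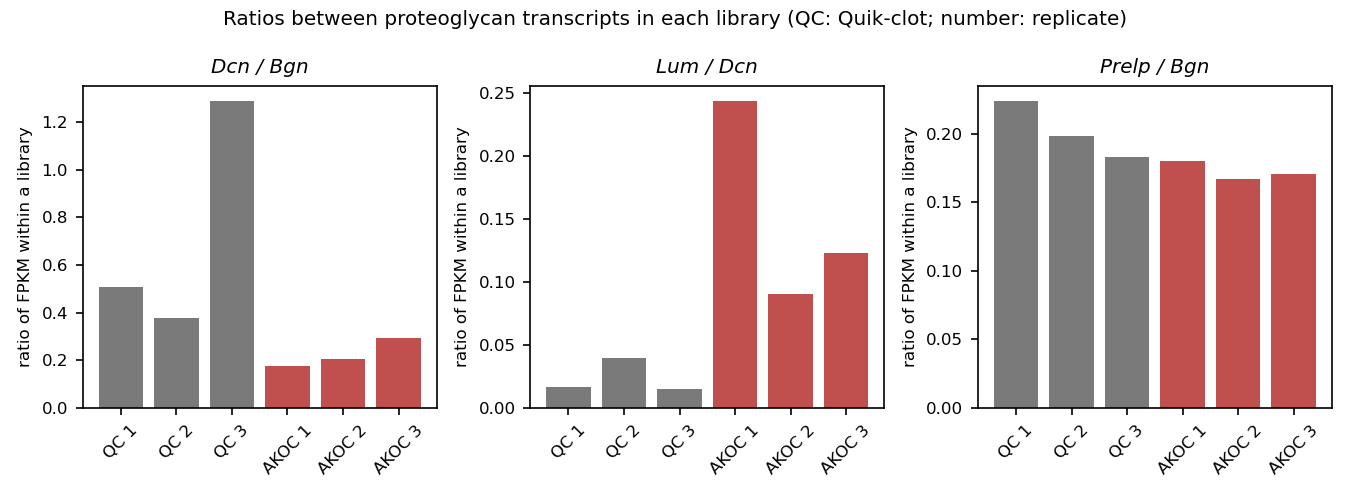
Ratios of FPKM between proteoglycan transcripts in each library, as bars from 0, for Quik-clot (grey) and AKOC (red). Dcn to Bgn is 0.376 or higher after Quik-clot and 0.292 or lower after AKOC, Lum to Dcn is 0.0906 or higher after AKOC, and Prelp to Bgn lies between 0.167 and 0.224.

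Several members lie beside one another in the genome, by the gene order of the GRCr8 reference. Dcn and Lum are direct neighbours among protein-coding genes and had log2 fold changes of -0.99 and 1.90. That of Dcn was -0.18 without Quik-clot replicate 3. Ogn lies next to Omd (osteomodulin), whose log2 fold change was 0.66 ± 0.35, with Aspn (asporin) beyond it at 0.09 ± 0.27. Prelp lies between Optc (opticin; 0.63 ± 0.36) and Fmod. None of these genes, Dcn and Lum included, passed the threshold. Ogn also overlaps Cenpp, and uncharacterised loci overlap Dcn, Fmod, Prelp, Thbs1 and Tnc. The strand setting of the counting is not given in the sources used here, so reads of overlapping genes may not have been told apart.

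Related genes were read from lists compiled for their roles. Among 6 tested leucine-rich relatives 4 were positive and 2 negative, with 0 called and a median of 0.13. Podn (podocan), 1 of the negative relatives, had 1.28, 1.24 and 1.19 CPM under Quik-clot against 1.03, 1.15 and 1.04 CPM under AKOC. Its CPM did not overlap, and its log2 fold change was -0.20 ± 0.27 (edgeR adjusted p = 0.775). Of 17 other matricellular genes 8 were positive and 9 negative, with 0 called by edgeR and a median of -0.01. Spp1 (osteopontin), a matricellular cytokine of bile duct cells and macrophages, had 4.44, 2.87 and 4.32 CPM under Quik-clot against 1.12, 2.30 and 1.17 CPM under AKOC, a log2 fold change of -1.34 ± 0.35 (edgeR adjusted p = 0.314; DESeq2 adjusted p = 0.0288). Of 8 macrophage markers 1 was positive and 7 negative, with 0 called, a median of -0.28 and a summed level of 689 to 1064 CPM after Quik-clot and 561 to 832 CPM after AKOC. Of 4 tested bile duct cell markers 1 was positive and 3 negative, with 0 called, a median of -0.46 and a sum of 11.3 to 20.8 CPM after Quik-clot and 14.6 to 19.5 CPM after AKOC for all 6 listed. The part of these cells in the Spp1 level was not tested. Thbs4, a thrombospondin, had 0.762, 0.458 and 0.513 against 2.72, 1.25 and 0.965 CPM, a log2 fold change of 1.51 ± 0.48. Fbln5, an elastic fibre protein, had 0.44 ± 0.23, and Thbs2 0.48 ± 0.29.

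Among 20 tested fibril partners (collagens, fibronectin and cross-linking enzymes) 13 were positive and 7 negative, with 0 called by edgeR and a median of 0.13. The cross-linking oxidase Loxl4 had 17.3, 20.6 and 24.2 CPM under Quik-clot against 32.8, 36.5 and 40.4 CPM under AKOC, a log2 fold change of 0.82 ± 0.15 (edgeR adjusted p = 0.275; DESeq2 adjusted p = 0.00228). The fibril-associated collagen Col14a1, which binds decorin, had 15.2, 34.3 and 27.7 against 40.4, 43.4 and 48.97 CPM, a log2 fold change of 0.78 ± 0.27. Col6a3 had 0.56 ± 0.27 and Col3a1 0.71 ± 0.36, both with overlapping groups.

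Proteases and inhibitors (10 tested) had 4 positive and 6 negative values, with a median of -0.29 and 0 called by edgeR. Adamts9, a protease of the matrix proteoglycans aggrecan and versican, had 0.479, 1.15 and 0.973 CPM under Quik-clot against 2.81, 4.81 and 2.66 CPM under AKOC, a log2 fold change of 1.98 ± 0.41 (edgeR adjusted p = 0.290; DESeq2 adjusted p = 0.00103). The matrix-bound inhibitor Timp3 had -0.77 ± 0.24, with 28.3, 25.8 and 49.8 CPM against 20.4, 20.1 and 20.3 CPM. Mmp9, a gelatinase, had -1.61 ± 0.73, with 3.296 CPM in Quik-clot replicate 3 and 0.359 to 0.848 CPM in the other libraries, and Timp1 had -0.56 ± 0.26.

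Receptors of the members (21 tested) had 8 positive and 13 negative values with a median of -0.05, and 0 were called. Egfr, to which decorin can bind, stood at 174, 292 and 172 CPM under Quik-clot against 278, 315 and 446 CPM under AKOC, with overlap (0.70 ± 0.27). Vldlr, a lipoprotein receptor that also binds thrombospondin-1, had -0.76 ± 0.36, Kdr -0.27 ± 0.14 and Ddr1 -0.42 ± 0.29. Of 25 tested enzymes that build the sulfated chains 9 were positive and 16 negative, with 0 called and a median of -0.12. Chsy1, a chondroitin synthase, had 5.11, 7.197 and 5.97 CPM against 4.71, 4.67 and 4.02 CPM (-0.45 ± 0.18), and the keratan sulfate enzyme B3gnt7 -1.85 ± 0.74, with 2.32 CPM in Quik-clot replicate 3 and 0.225 to 0.458 CPM in the others. Chst13, a chondroitin sulfotransferase, had -0.74 ± 0.32.

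Of 15 tested genes of the transforming growth factor beta axis 4 were positive and 11 negative, with 0 called and a median of -0.20. Its ligand Tgfb3 had 2.74, 3.87 and 4.19 CPM under Quik-clot against 2.20, 2.16 and 2.14 CPM under AKOC, a log2 fold change of -0.73 ± 0.23 (edgeR adjusted p = 0.339). Lrrc32, which anchors the latent ligand on cells, had -0.47 ± 0.22 and the latency protein Ltbp4 0.58 ± 0.29.

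**Figure D5:**
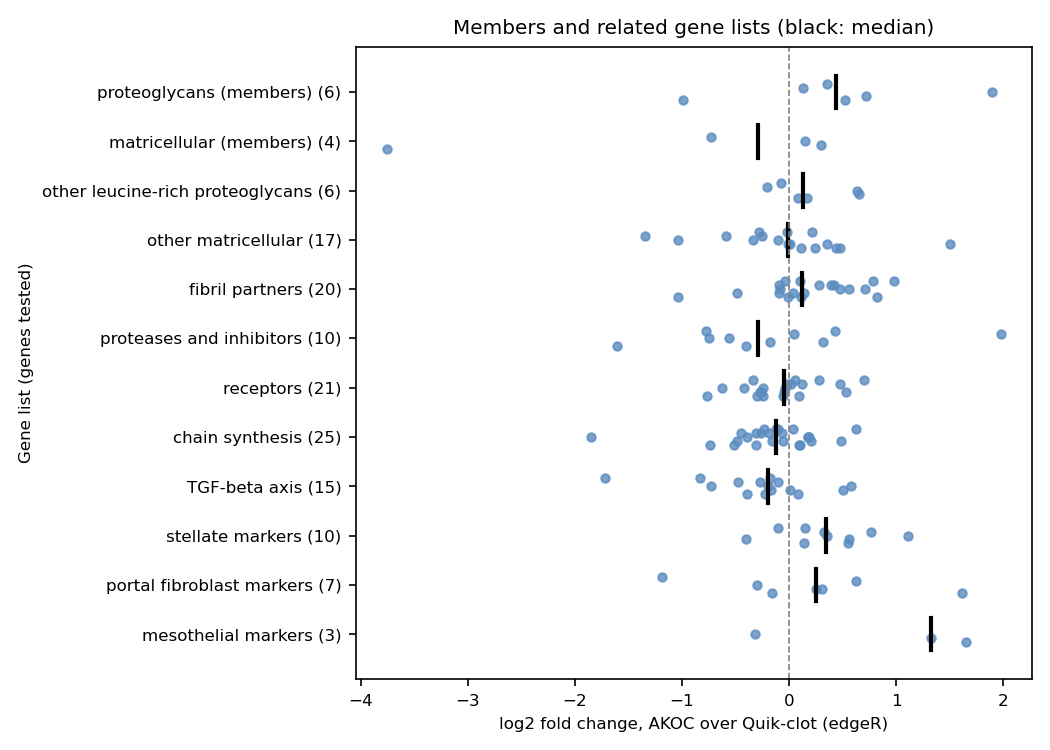
Log2 fold change, AKOC over Quik-clot, of every tested gene (blue) of the members, related lists and marker lists of cells that make matrix, with the list median (black). The medians run from -0.29 to 0.44 apart from the 3 mesothelial markers, and Postn, at -3.75, is the lowest point.

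Markers of the cells that make matrix were read beside the members. In bulk tissue, more cells of a type and more RNA per cell cannot be told apart. Of 10 stellate cell markers, all tested, 8 were positive and 2 negative, with 0 called and a median of 0.34. Their summed level was 113 to 197 CPM after Quik-clot and 189.5 to 235 CPM after AKOC, lowest in Quik-clot replicate 1 and highest in AKOC replicate 1, as for Bgn, Lum, Ogn, Prelp and Sparc. Pdgfrb, a growth factor receptor of stellate cells, had 6.46, 11.6 and 9.62 CPM against 11.4, 18.3 and 17.4 CPM (0.77 ± 0.26).

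The 7 myofibroblast and smooth muscle markers summed to 29.2 to 30.2 CPM after Quik-clot and 32.5 to 35.5 CPM after AKOC, with 4 positive, 3 negative and a median of 0.09. Myl9, a myosin light chain, stood at 5.48, 9.47 and 6.62 against 17.5, 10.9 and 8.55 CPM, with overlap. Its mean rose by more than the mean sum did, so the other markers together were lower on average after AKOC. In AKOC replicate 3, where the sum was highest, Myh11 exceeded its Quik-clot levels. It had 9.23, 6.35 and 8.05 CPM under Quik-clot against 3.66, 7.34 and 10.9 CPM under AKOC. Acta2, the smooth muscle actin of myofibroblasts, was at 5.44, 4.77 and 6.05 against 4.29, 4.86 and 5.76 CPM. Of 9 portal fibroblast markers 7 were tested, 4 positive and 3 negative, with a median of 0.26. Their sum of 79.96 to 288 CPM after Quik-clot and 437 to 563 CPM after AKOC was mostly Dpt (dermatopontin, a decorin-binding matrix protein), at 73.7, 281 and 125 CPM against 432, 557 and 478 CPM (1.61 ± 0.45; edgeR adjusted p = 0.325; DESeq2 adjusted p = 0.00913). Thy1, the classical portal fibroblast marker, was at 0.0540 to 0.180 CPM in all libraries.

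Of 7 mesothelial (liver capsule) markers in the table, 3 were tested, 2 positive and 1 negative, with a median of 1.33. Among them 0 were called by edgeR and 1 was called higher by DESeq2. The log2 fold changes were 1.33 for Gpm6a, without overlap, and 1.66 for Msln, with overlap. Krt19, also listed for bile duct cells, had -0.32. The sum of all 7, 10.9 to 19.4 CPM after Quik-clot and 28.8 to 46.9 CPM after AKOC, was mostly Gpm6a. Upk1b was at 0 in all libraries but Quik-clot replicate 1, Lrrn4 at 0 in the AKOC libraries and Wt1 at 0.189 CPM or lower. The part of these cell types in the levels of the members was not tested. The 6 platelet markers in the table, relevant to Thbs1, summed to 10.9 to 24.5 CPM after Quik-clot and 11.5 to 22.6 CPM after AKOC, with Ppbp, Gp9 and Gp1ba at 0.270 CPM or lower.

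For each member, genes of closest centred log2 CPM profile over the 6 libraries were sought among 9073 tested genes averaging at least 5 CPM. Closeness was the root mean square difference, which is not scaled for the size of the changes. Members of small spread, such as Sparc, thus have near genes more easily. Igfbp7 and Bmp5 were nearest to Bgn (0.0902 and 0.116 log2 units), Rig1 and Ackr4 to Prelp (0.0917 and 0.0950), Nae1 and Calm2 to Ogn (0.0581 and 0.0644) and Pnpt1 and Fam172a to Sparc (0.0348 and 0.0427). Heatr6 and Lss were nearest to Dcn (0.242 and 0.281) and Pik3c3 and Tmem254 to Lum (0.445 and 0.550). Those of Thbs1 were Secisbp2l and Gtf3c3 (0.115 and 0.130), of Fmod Ncald and Efna1 (0.155 and 0.170) and of Tnc an uncharacterised locus and Gprin3 (0.249 and 0.254).

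By this distance none of the 9073 genes compared lay close to Postn, the member with the widest profile. A gene of the same shape but smaller changes would lie far from it too. Genes below 5 CPM on average, the range of Postn itself, were not compared. The nearest was Col1a1, the main fibrillar collagen of scars, at a distance of 1.08 log2 units, followed by Cyp1a1 at 1.18. Cyp1a1 averaged 14.3 CPM under Quik-clot and 0.796 CPM under AKOC, a log2 fold change of -4.15 ± 0.63 (edgeR adjusted p = 0.231). Col1a1 stood at 6.83, 17.8 and 20.2 CPM under Quik-clot against 1.77, 6.65 and 13.4 CPM under AKOC, with overlap and a log2 fold change of -1.04 ± 0.68 (edgeR adjusted p = 0.562). The lowest Col1a1 library, AKOC replicate 1, was the one without a Postn read, and the order of the AKOC libraries was the same for both genes. Postn to Col1a1, in FPKM, was 0.0818, 0.180 and 0.174 after Quik-clot and 0, 0.0138 and 0.0332 after AKOC, without overlap. This ratio too was chosen after the values had been seen, and Postn alone was already without overlap.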

How the data were processed

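The authors deposited read counts per gene, whole numbers without normalization, and a second table of FPKM for the same genes and 6 libraries. The submitters' processing notes list fastp, HISAT2 and HTSeq with the mRatBN7.2 build. Tool versions, the annotation, strandedness and the formula behind the deposited FPKM were not given in the sources used here. For the 10 genes both tables hold the same measurement, since 1 length per gene links them.

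Groups and replicate numbers came from the sample titles. Genes were filtered with filterByExpr (minimum count 10, minimum total 15), scaled by TMM (factors 0.902 to 1.12) and tested with edgeR 4.0.16 (R 4.3.3), glmQLFit and glmQLFTest, two-sided, in a model of dressing alone, with p-values adjusted by Benjamini-Hochberg over 13872 genes. The SE is the log2 fold change divided by the square root of F. Log2 CPM used a prior count of 2. Alternatives used DESeq2 1.42.0 and limma 3.58.1. The fits were tested on simulated data of 13872 genes, each drawn independently with a dispersion estimated from these libraries. Shifts shared by many genes of a library were not simulated, so the rates may not hold for the real data. With no change simulated, edgeR called 0 genes and DESeq2 31. With changes simulated, edgeR called 11 unchanged genes and DESeq2 48. Of 2-fold changes, edgeR recovered 43.3% and DESeq2 62.7%. Of 4-fold changes they recovered 79.1% and 86.6%, and of 8-fold changes 90.9% and 93.9%. Libraries of a dressing all differed beyond sampling noise.

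The members and lists were chosen with earlier results of these data known. Named were all members, up to 4 genes of smallest p per related list, up to 2 genes of nearest profile per member, and markers. A gene that this rule named is not reported here.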

Additional observations from a re-analysis of the deposited data

How the results depend on the processing

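Of 147 values of single members under the alternatives, 143 kept their direction and their side of the threshold. Only the fold changes of Fmod and Thbs1 changed sign: leaving out single libraries gave -0.20 to 0.62 for Fmod (-0.18 in the absence of Quik-clot replicate 2, -0.20 in that of AKOC replicate 3) and -0.17 (without AKOC replicate 3) to 0.32 for Thbs1. Postn was called by DESeq2 alone, so that its count of members called was 1. The members without overlap were 4, and 2 with library totals only and 2 on FPKM, where Sparc and Bgn overlapped. Leaving out a library gave 4 to 6, but fewer libraries also separate more easily. The share over all tested genes, 18.4%, was counted only in the main setting with all 6 libraries. DESeq2 called 289 genes and edgeR without single libraries 0 to 18, the most without Quik-clot replicate 2, with 10 when AKOC replicate 1 and 2 when AKOC replicate 2 was left out; limma-voom called 0. The cause of these differences was not tested. With the replicate number as a replicate block, 1 gene and 0 members were called; deviations of same-numbered libraries correlated at -0.07, -0.08 and -0.20, so the numbers are not shown to pair the libraries. With a filter of 1 CPM in 3 samples, Fmod, Postn and Tnc were not tested. Depth limits Lum, Postn, Fmod and Tnc.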

Other observations

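Tsku (tsukushi), a secreted leucine-rich relative made by the liver, was the most abundant of the related proteoglycan genes and is named here after its values had been seen. It stood at 149, 164 and 95.1 CPM in Quik-clot replicates 1, 2 and 3 and at 305, 74.5 and 79.98 CPM in AKOC replicates 1, 2 and 3. AKOC replicate 1, the highest library for Bgn, Lum, Ogn, Prelp and Sparc, was also the highest for Tsku, while the other AKOC libraries lay below all Quik-clot libraries. The log2 fold change was 0.17 ± 0.55 (edgeR adjusted p = 0.909).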
